A study of Homo sapiens with 6 samples.

Results

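The MMP, ADAM and ADAMTS proteases are 3 related families of zinc metalloproteases. Members were chosen by name, as the protein-coding genes of GENCODE release 44 whose symbol is MMP, ADAM or ADAMTS followed by a number, without the ADAMTS-like (ADAMTSL) genes. This gave 62 of 20020 protein-coding genes, of which 23 were MMPs, 20 ADAMs and 19 ADAMTS genes. Each peak centred inside a member gene, or intergenic with the start of a member as the nearest protein-coding gene start, was assigned to that gene. The members held 626 of 152800 peaks, spread over 61 genes, and MMP21 held no peak. For 625 of these peaks the counts were high enough to be tested, and the remaining peak belonged to ADAMTS6.

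The data are ATAC-seq, in which the Tn5 transposase inserts adaptors where chromatin is accessible, so that more reads come from open regions. A375, a human melanoma cell line, carried either an empty vector (EV, 3 libraries) or overexpressed HMGB2 (HMGB2OE, 3 libraries), a high mobility group protein that bends DNA. The study's methods describe stable lines made by lentiviral transduction, and its reporting summary describes the libraries as technical replicates of an experiment that was not repeated, so p-values and SDs here measure the spread between libraries and not between independent experiments. The comparison asks where chromatin opens or closes when HMGB2 is high, here at the genes of the extracellular and cell surface proteases.

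MMPs cleave collagens, gelatins, laminins and other matrix proteins, and membrane-type MMPs do so at the cell surface, where MMP14 also activates pro-MMP2. ADAMs are membrane proteins, and those with an intact catalytic site shed growth factors, cytokines and receptors from cells. ADAMTS proteases are secreted and carry thrombospondin repeats. Some cut the proteoglycans aggrecan and versican (hyalectanases), others remove the amino propeptide from procollagens, and ADAMTS13 cuts von Willebrand factor. In melanoma these families are studied for their roles in invasion and in release of ligands.

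The libraries held 26910189 to 45645294 counts in peaks, and TMM normalization factors lay between 0.975 and 1.02. Libraries of the same condition differed by more than sampling noise (chi-square per degree of freedom 2.5 to 4.66), so each was counted once. Of the 2 peaks centred in the HMGB2 gene, which overlap sequence that an HMGB2 construct would also carry, both were higher in HMGB2OE cells (log2 fold changes 1.67 and 1.16, adjusted p = 0.000113 and 0.00822). Among melanocyte lineage markers the promoters of PMEL (mean EV normalized count 3797), MITF (1325), SOX10 (859) and S100B (854) were open, while MLANA and TYR had no tested promoter peak. The authors called peaks against public melanocyte data, so a missing peak at a melanocyte gene need not mean closed chromatin. Markers of other cell types were in part open too, with KRT8 at 1277 and COL1A1 at 751, while PTPRC, CDH1, CDH5 and TEK had no tested promoter peak. No marker was called different between conditions (log2 fold changes −0.068 to 0.16).

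Accessibility rose mainly at ADAMTS genes in HMGB2OE cells, and the peaks that fell belonged to ADAMTS and MMP genes. A peak was called higher or lower where edgeR's quasi-likelihood test over all 150117 tested peaks gave an adjusted p under 0.05, with a fold limit of 1.5 in either direction. Of the 625 protease peaks, 20 were called higher (3.2%, against 1.87% of all tested peaks) and 11 lower (1.76%, against 1.44%). The 31 called peaks lay in or near 15 genes, 10 with a higher peak and 6 with a lower one, and ADAMTS3 had both. Without the fold limit 33 were higher (against 3.44% of all tested peaks) and 22 lower (against 3.03%). Of the 31, 14 kept their call in every alternative fit, and the 7 lost in a fit that kept all libraries were 1 each at ADAMTS9, ADAMTS16, ADAMTS17, MMP10 and MMP16 and 2 at ADAMTS3. The median log2 fold change was 0.027 over protease peaks and −0.0049 over all tested peaks, so the families as a whole lay close to the rest of the genome. The 3 EV libraries did not overlap the 3 HMGB2OE libraries at any of the 31 called peaks, and overlap was also absent at 28.2% of protease peaks and 25.1% of all tested peaks. In bulk chromatin a change in a fraction of the cells and a change in every cell cannot be told apart.

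Counts by family stand beside shares of 1.87% higher and 1.44% lower over all tested peaks. Differences between the families were not tested. ADAMTS genes held 18 higher and 7 lower peaks among 309, with a median log2 fold change of 0.070. ADAM genes held 2 higher and 0 lower peaks among 152 (median 0.036), with 10 peaks lower at an unadjusted p under 0.05 by edgeR and 0 called lower by DESeq2. MMP genes held 0 higher and 4 lower peaks among 164 (median −0.050), with 9 peaks higher at an unadjusted p under 0.05 by edgeR and 0 called higher by DESeq2. MMP16 alone supplied 58 of the MMP peaks, and the median of the other 106 was −0.0069. By position, 16 of the 31 called peaks were intronic, 14 intergenic and 1 in a coding exon. Of all tested protease peaks, 49.9% were intronic, 44.2% intergenic and 1.92% in a coding exon. The median GC content was 49.5% in the higher peaks and 39.8% in the lower peaks, beside 44.6% in all tested protease peaks. With offsets for GC content the MMP10 call was lost, with 1 of the 2 ADAMTS17 calls, 1 of the 4 at ADAMTS16 and 1 of the 3 at ADAMTS3.

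With the counts of all peaks of a gene summed, so that each gene gave 1 value, 6 of 61 protease genes were higher (9.84%, against 5.83% of 18341 genes tested) and 1 was lower (1.64%, against 3.42%), at an adjusted p under 0.05. The rises were at ADAMTS2, ADAMTS19, ADAMTS18, ADAM7, ADAMTS9 and ADAMTS8, and the fall was at MMP10. The median over the 61 genes was a log2 fold change of 0.035, beside −0.0021 over all genes. By family the median of the gene sums was 0.052 for ADAMTS, 0.027 for ADAM and 0.043 for MMP genes. For the MMP genes it thus lay above 0, while the median of their peaks was −0.050. For genes with a single peak, the log2 value from sums lay 0.032 above that from the peak (median of 2433 genes), since sums were normalized separately.

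**Figure D1:**
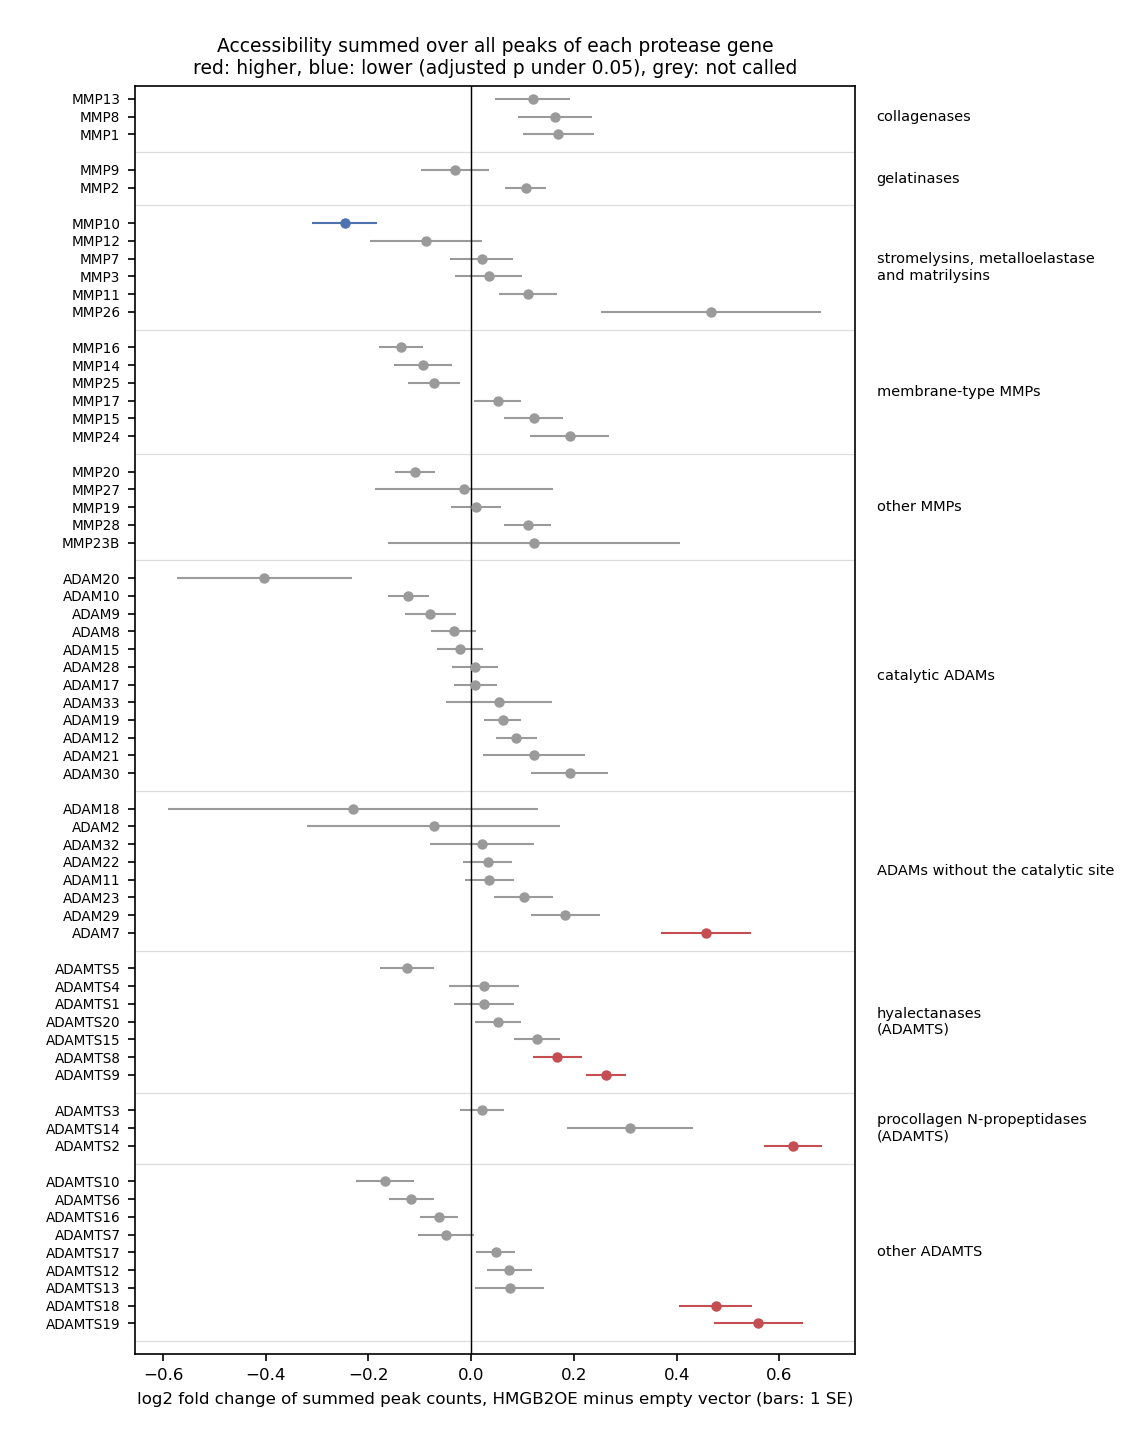
Log2 fold change of the summed peak counts of each protease gene (x axis, HMGB2OE minus EV, with bars of 1 SE), with genes grouped by role on the y axis. ADAMTS2 lies farthest right at 0.63 among the 6 genes called higher in red, and MMP10 at −0.25 is the single gene called lower in blue.

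Among the procollagen N-propeptidases, which trim collagen precursors before fibrils form, ADAMTS2 opened across its introns. ADAMTS14 rose at 1 peak, while ADAMTS3 had 1 higher and 2 lower peaks. The 3 genes together held 8 higher and 2 lower peaks among 40, beside 1.87% higher and 1.44% lower of all tested peaks. ADAMTS2 (ENSG00000087116.17, hg38 chr5:179110853-179345461, minus strand) had 12 tested peaks, of which 11 had a log2 fold change above 0 and 6 were called higher, all intronic. Its summed normalized counts were 1256, 1205 and 1388 in EV replicates 1 to 3 and 1932, 1928 and 2080.1 in HMGB2OE replicates 1 to 3. Every HMGB2OE library lay above every EV library, and the summed log2 fold change was 0.63 (SE 0.057, adjusted p = 5.4e-06).

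The strongest rise of ADAMTS2 was at chr5:179254613-179255114, an intronic peak 90.6 kb downstream of the gene start. It held 57.0, 48.2 and 39.8 normalized counts in the EV libraries and 120, 137 and 144 in the HMGB2OE libraries. The lowest HMGB2OE library was thus over the highest EV library by a wide margin, with a log2 fold change of 1.47 (SE 0.188, adjusted p = 1.8e-05). The 200 central bases of this peak (chr5:179254764-179254963, hg38, plus strand), shown because this peak had the largest log2 fold change of any called protease peak and holds none of the words searched below for AP-1, were as follows.
ADAMTS2 peak centre: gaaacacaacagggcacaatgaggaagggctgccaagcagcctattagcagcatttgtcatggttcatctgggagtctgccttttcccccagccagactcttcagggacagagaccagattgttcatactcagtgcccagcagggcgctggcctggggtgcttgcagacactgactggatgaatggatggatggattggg

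The next peak of ADAMTS2 by size lay 195 kb into the gene (chr5:179150315-179150816), with 58.4, 37.9 and 52.7 counts in EV and 101, 87.6 and 118 in HMGB2OE libraries (log2 fold change 1.06, SE 0.210, adjusted p = 0.0021). The other 4 called peaks, between 69.3 and 136 kb from the start, had log2 fold changes of 0.74 to 0.79. Of the 6, 5 stayed called in every alternative fit, and the peak 83.9 kb from the start was lost without EV replicate 2 (0.62, adjusted p = 0.0554). The promoter peak at the start site rose less than the introns, from 116 ± 16.9 to 149 ± 19.1 (SD, n = 3), and was not called (log2 fold change 0.37, adjusted p = 0.161). The 156 other tested peaks within 1 Mb of the gene had a median log2 fold change of −0.021, with 2 called higher and 2 lower.

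ADAMTS3, a propeptidase that also activates the lymphatic growth factor VEGFC, had intronic peaks in both directions. A peak 257 kb from its start went from 86.2, 79.2 and 83.1 counts in EV to 48.5, 55.05 and 39.4 in HMGB2OE libraries (log2 fold change −0.78, adjusted p = 0.0232), and a peak 79.8 kb from the start had a log2 fold change of −0.64 (adjusted p = 0.0358). Another peak, at 151 kb, went the other way, from 87.6, 71.4 and 65.5 to 119, 99.3 and 124 (log2 fold change 0.61, adjusted p = 0.0350). These calls were lost in most fits that left out 1 library. The first was lost without any library but HMGB2OE replicate 2 (−0.67 to −0.81), the next without any but EV replicate 3 (−0.55 to −0.70), and the rise without EV replicates 2 or 3 or HMGB2OE replicates 1 or 3 (0.53 to 0.58). The rise was also lost by DESeq2, with a loess trend and with GC content offsets. The fall at 79.8 kb was lost by DESeq2 and with the median of its 10 Mb window removed. On summed counts ADAMTS3 had a log2 fold change of 0.020 (adjusted p = 0.804). The 37 neighbouring peaks of ADAMTS3 within 1 Mb had a median of 0.19, with 3 called higher and 0 lower. ADAMTS14 had 1 intronic peak higher, 54.9 kb from the start, at 87.6, 68.8 and 51.5 in EV and 122, 113 and 111 in HMGB2OE libraries (log2 fold change 0.75, adjusted p = 0.0138), and the call was lost without EV replicate 3 (0.58) or HMGB2OE replicate 1 (0.70). Of the 8 tested peaks of ADAMTS14, 4 lay above 0 and 4 below, and the lowest, at −1.49, was not called.

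ADAMTS19, a protease known for its role in heart valves, was the only member with a called promoter peak. Of 84 protease promoter peaks, centred within 3 kb of a start site, 2 were called higher (against 0.701% of 30398 promoter peaks) and 0 lower (against 0.595%), with 2 lower at an unadjusted p under 0.05 by edgeR and 0 called lower by DESeq2. Both higher peaks belonged to ADAMTS19 (ENSG00000145808.10, chr5:129460281-129738683, plus strand). The peak at the start site, chr5:129459894-129460395, held 77.8, 67.1 and 69.0 counts in EV and 145, 124 and 127 in HMGB2OE libraries. Its centre also lies within the long non-coding RNA gene ADAMTS19-AS1. The lowest HMGB2OE library lay well above the highest EV library, with a log2 fold change of 0.90 (SE 0.168, adjusted p = 0.0013), and the call held in every alternative fit. The 250 bases before the RefSeq start (GRCh38.p14, chr5:129460048-129460297, plus strand), which fall inside this peak and are shown as the only called start site of the family, hold none of the AP-1, TEAD or E-box words searched.
ADAMTS19 promoter: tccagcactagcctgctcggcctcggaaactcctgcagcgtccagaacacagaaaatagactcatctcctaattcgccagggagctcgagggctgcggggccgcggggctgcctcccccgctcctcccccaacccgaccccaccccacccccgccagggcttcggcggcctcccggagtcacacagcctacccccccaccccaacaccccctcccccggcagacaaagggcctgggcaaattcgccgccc

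The second ADAMTS19 promoter peak, in the first coding sequence 1.09 kb from the start, had 62.5, 67.1 and 72.6 counts in EV and 111, 94.3 and 119 in HMGB2OE libraries (log2 fold change 0.68, adjusted p = 0.0214). It was lost without EV replicates 1 or 2 or HMGB2OE replicates 1 or 3 (0.61 to 0.67). An intergenic peak 37.2 kb upstream held 75.0, 97.2 and 81.9 against 153, 152 and 169 (log2 fold change 0.88, SE 0.157, adjusted p = 0.00082), and stayed called throughout. The 53 neighbouring peaks within 1 Mb had a median log2 fold change of 0.012. The summed log2 fold change of ADAMTS19 was 0.56 (SE 0.0869, adjusted p = 0.00066).

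**Figure D2:**
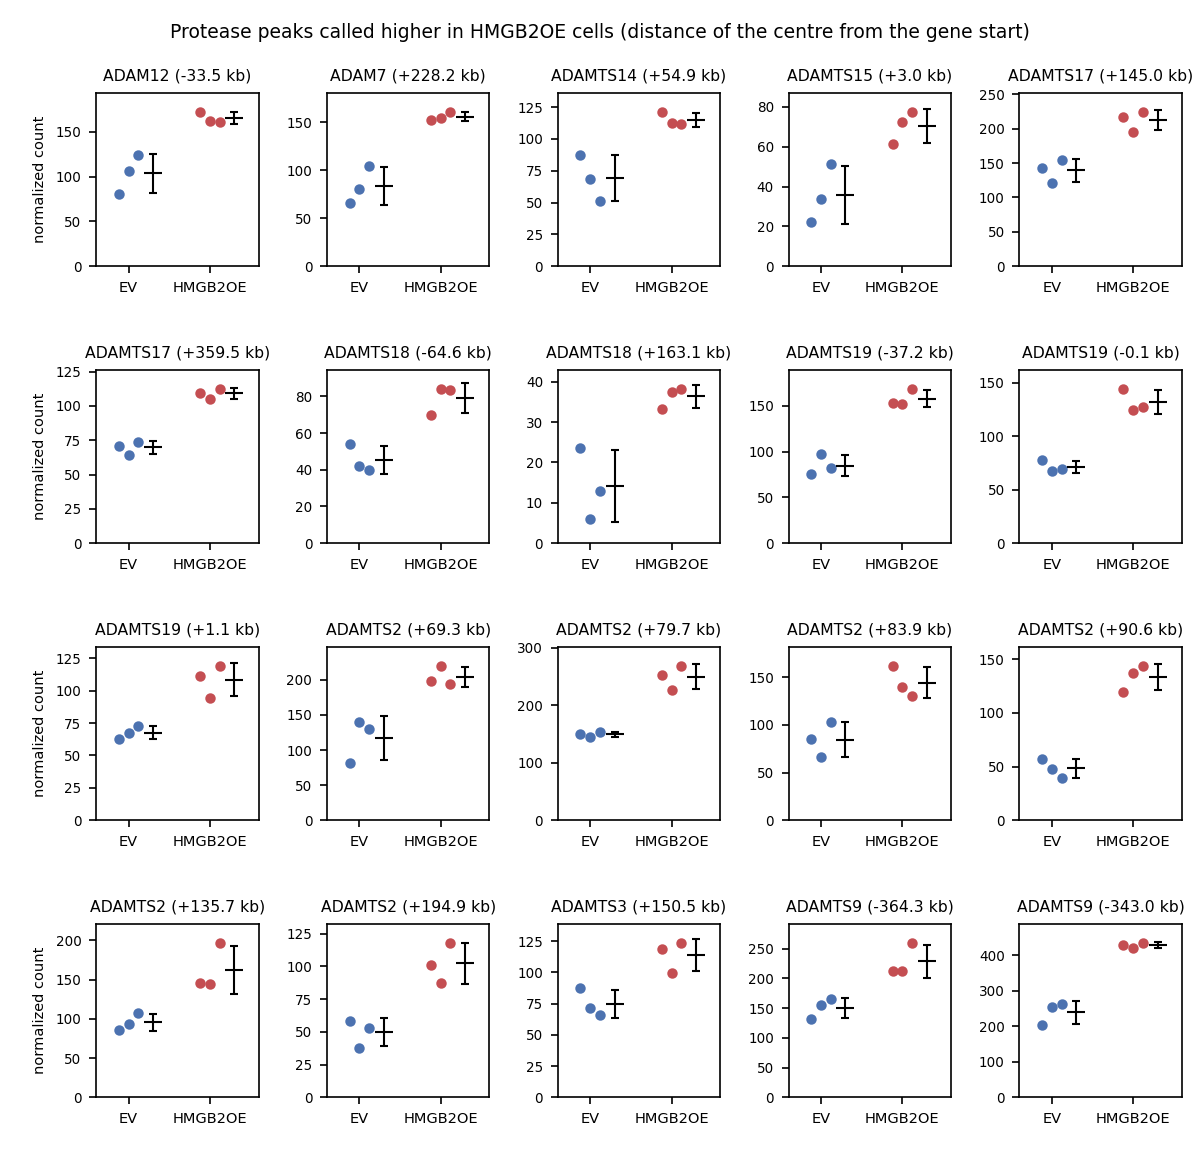
Normalized count (y axis, from 0) of each of the 20 protease peaks called higher, in EV (blue) and HMGB2OE (red) libraries, with black bars for the mean and SD of 3 libraries. In every panel the 3 red points lie above the 3 blue points, and the lowest counts are at the ADAMTS18 peak 163 kb from the start, with EV values from 6.02 to 23.6.

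The hyalectanases, which cut aggrecan and versican, held 3 higher and 1 lower peaks among 118. Of all tested peaks 1.87% were higher and 1.44% lower. ADAMTS9 (ENSG00000163638.13, chr3:64515654-64688000, minus strand) had 28 of 35 tested peaks above 0. Its strongest peak, chr3:65030757-65031258, lay 343 kb upstream within the long non-coding RNA gene ADAMTS9-AS2, with 203, 255 and 262 counts in EV and 429, 420.4 and 436 in HMGB2OE libraries. The HMGB2OE libraries were tightly grouped and clear of the EV libraries (log2 fold change 0.83, SE 0.113, adjusted p = 4.5e-05). A neighbouring peak 364 kb upstream, also within ADAMTS9-AS2, had a log2 fold change of 0.59 (adjusted p = 0.0074) and dropped under the fold limit without EV replicate 1 (0.51) or HMGB2OE replicate 3 (0.49). The ADAMTS9 promoter peak, in an intron 2.05 kb from the gene start, was among the most open of the family. It held 1028, 1219 and 1165 counts in EV and 1400.0, 1440.4 and 1411 in HMGB2OE libraries, a log2 fold change of 0.31 that passed the adjusted p (0.0154) but not the fold limit. On sums ADAMTS9 was higher by 0.26 (SE 0.0389, adjusted p = 0.00048).

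ADAMTS15 rose at an intronic peak 3.01 kb from its start, from 22.2, 33.6 and 51.5 to 61.2, 72.6 and 77.7 counts (log2 fold change 0.96, adjusted p = 0.0228), and the call was lost without EV replicates 1 or 2 or HMGB2OE replicates 2 or 3 (0.75 to 0.94). Its promoter did not pass the test (0.035, adjusted p = 0.860). ADAMTS8, whose start lies near that of ADAMTS15, had no called peak, but its sum over 9 tested peaks gave a log2 fold change of 0.17 (adjusted p = 0.0353), which was lost without any library but EV replicate 3 (0.14 to 0.18). ADAMTS1 fell at an intergenic peak 9.38 kb upstream, from 72.3, 86.0 and 73.7 to 46.8, 47.5 and 22.5 counts (log2 fold change −0.97, adjusted p = 0.0154), a call lost without EV replicate 2 (−0.88) or HMGB2OE replicate 3 (−0.72). The major aggrecanases ADAMTS4 and ADAMTS5 had no called peak, with promoter log2 fold changes of 0.17 (adjusted p = 0.559) and 0.51 (adjusted p = 0.135).

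Among the other ADAMTS genes, 7 peaks were higher and 4 lower of 151, beside 1.87% and 1.44% of all tested peaks. ADAMTS18 had 10 of 11 tested peaks above 0 and a summed log2 fold change of 0.48 (SE 0.0715, adjusted p = 0.00051). An intergenic peak 64.6 kb upstream of it held 54.2, 42.2 and 39.8 counts in EV and 69.7, 84.2 and 83.3 in HMGB2OE libraries (log2 fold change 0.81, adjusted p = 0.0230), lost without EV replicates 2 or 3 or HMGB2OE replicates 2 or 3 (0.73 to 0.78). The intronic peak at 163 kb had a log2 fold change of 1.44 (adjusted p = 0.0301) at low counts of 23.6, 6.02 and 12.9 in EV and 33.2, 37.5 and 38.3 in HMGB2OE libraries, and was lost without any library but EV replicate 1 (1.01 without EV replicate 2, the lowest value). The 68 neighbours of ADAMTS18 within 1 Mb had a median of 0.14, with 3 called higher, so part of the surrounding region was higher too.

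ADAMTS17 had 2 intronic peaks higher, with log2 fold changes of 0.65 (359 kb from the start, adjusted p = 0.0225) and 0.62 (145 kb, adjusted p = 0.0056). The first was lost without EV replicate 2 or any HMGB2OE library (0.59 to 0.68) and the second without EV replicate 2 (0.51) or HMGB2OE replicate 3 (0.58). Its sum did not pass the test (0.048, adjusted p = 0.465). ADAMTS12 had no called peak, with a promoter log2 fold change of 0.22 (adjusted p = 0.280).

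ADAMTS16 was the nearest gene to 4 intergenic peaks that fell. The strongest, chr5:4387244-4387745, held 246, 256 and 231 counts in EV and 121, 113 and 134 in HMGB2OE libraries (log2 fold change −1.001, SE 0.131, adjusted p = 2.8e-05). It lay 753 kb upstream of the ADAMTS16 start and 792 kb from the start of IRX1, a homeobox gene, so its assignment rests on a small difference in distance. The peaks 767 and 770 kb upstream had log2 fold changes of −0.83 (adjusted p = 7.8e-05) and −0.78 (adjusted p = 8.5e-05), with the latter at 393, 372 and 383 counts in EV and 241, 229 and 194 in HMGB2OE libraries. The peaks at 767 and 770 kb lay 777 and 775 kb from the IRX1 start, an even smaller difference. These 3 falling peaks were clear of overlap and stayed called in every alternative fit. The fourth, 589 kb upstream, was at −0.87 (adjusted p = 0.0469) and was lost without any library but HMGB2OE replicate 3 (−0.77 to −0.96). Nearer to the gene no peak was called, and the promoter (−0.10, adjusted p = 0.785) and the sum over 43 tested peaks (−0.063, adjusted p = 0.296) did not pass the test.

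**Figure D3:**
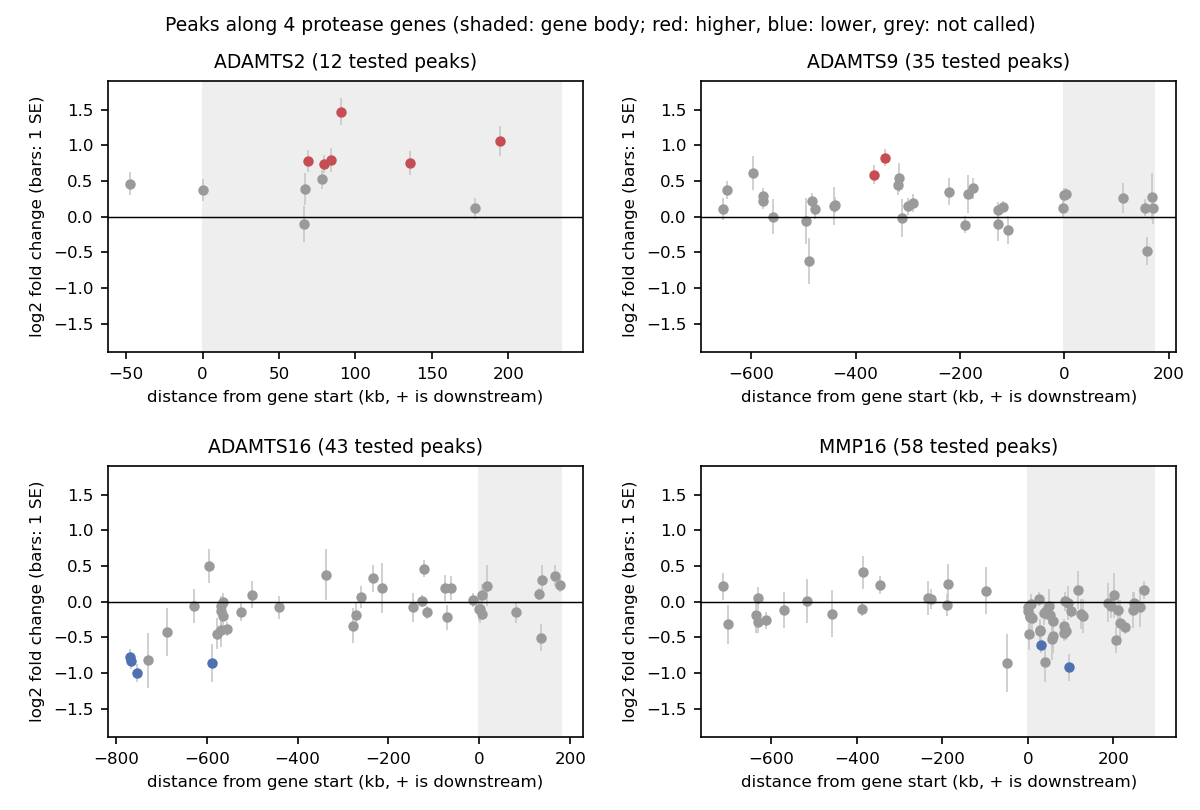
Log2 fold change of each tested peak (y axis, bars of 1 SE) against the distance of its centre from the gene start in kb (x axis), for ADAMTS2, ADAMTS9, ADAMTS16 and MMP16, with the gene body shaded. The red points of ADAMTS2 lie inside the gene, those of ADAMTS9 343 and 364 kb upstream, and the blue points of ADAMTS16 lie 589 to 770 kb upstream, while 44 of 58 MMP16 peaks lie under 0.

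The ADAMs had 2 called peaks. ADAM12, a catalytic ADAM of muscle and stroma, rose at an intergenic peak 33.5 kb upstream, from 80.6, 107 and 124 to 173, 162 and 161 counts (log2 fold change 0.66, adjusted p = 0.0091), with no overlap, and the call was lost without EV replicate 1 (0.53) or HMGB2OE replicate 1 (0.63). The ADAM12 promoter peak, 2.95 kb upstream of the start, had a log2 fold change of 0.36 (adjusted p = 0.0828). ADAM7, a sperm and epididymis protein without the catalytic site, rose at a peak 228 kb from its start, within the long non-coding RNA gene ADAM7-AS1, from 65.3, 80.0 and 104 to 152, 154 and 161 counts (log2 fold change 0.90, SE 0.166, adjusted p = 0.0011). That peak is almost as near to NEFM (245 kb), a neurofilament gene. The sum over the 5 tested peaks of ADAM7 was higher by 0.46 (SE 0.0877, adjusted p = 0.0037).

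The main sheddases did not pass the test at their promoters. ADAM10, which sheds Notch and cadherins, had 7 of 8 tested peaks below 0, with a promoter log2 fold change of −0.12 (adjusted p = 0.390) and a summed value of −0.12 (adjusted p = 0.0641). ADAM17, which releases TNF and EGF receptor ligands, gave 0.015 (adjusted p = 0.938). ADAM15 gave −0.067 (adjusted p = 0.662) and ADAM19 −0.055 (adjusted p = 0.806). The start-site peak of ADAM9 is centred in its neighbour TM2D2 and was counted there, and it held 1604 ± 41.6 in EV and 1503 ± 63.6 (SD, n = 3) in HMGB2OE libraries (log2 fold change −0.095, adjusted p = 0.507). The ADAM9 peak 3.17 kb into the gene gave −0.10 (adjusted p = 0.568). ADAM8, a leukocyte ADAM, had its promoter peak at 66.7, 58.5 and 70.2 in EV and 78.2, 100.1 and 115 in HMGB2OE libraries, which did not overlap, but the log2 fold change of 0.58 did not pass the test (adjusted p = 0.0692). That peak lies in an intron 2.1 kb from the start. A more open peak in the promoter window of ADAM8, centred in TUBGCP2, went the other way in value. It held means of 1260 in EV and 1086 in HMGB2OE libraries (log2 fold change −0.22, adjusted p = 0.103). The brain ADAMs without the catalytic site, ADAM22 and ADAM23, gave −0.011 (adjusted p = 0.958) and 0.22 (adjusted p = 0.364).

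The MMPs with a called peak were MMP14, MMP16 and MMP10, all lower. The membrane-type MMPs held 3 of these 4 peaks among 82, where 1.44% of all tested peaks were lower. MMP14, which cleaves collagen at the cell surface, fell at a peak 14.996 kb downstream of its start (chr14:22851306-22851807), beyond the gene end, from 284, 282 and 310.1 to 166, 218 and 143 counts (log2 fold change −0.72, SE 0.134, adjusted p = 0.0012). The groups did not overlap and the call held in every alternative fit. The gene LRP10 starts 20.2 kb from this peak. The MMP14 promoter (−0.16, adjusted p = 0.473) and sum (−0.094, adjusted p = 0.322) did not pass the test, and neither did the promoter of MMP15 (−0.093, adjusted p = 0.621).

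MMP16 had the most tested peaks of the families, 58, of which 44 lay below 0. Its intronic peak 97.2 kb from the start held 129, 124 and 92.4 counts in EV and 49.3, 63.4 and 70.9 in HMGB2OE libraries (log2 fold change −0.92, SE 0.193, adjusted p = 0.0035), and stayed called in every alternative fit. A second intronic peak, at 30.6 kb, held 299, 317 and 332 against 204, 222 and 196 (log2 fold change −0.61, adjusted p = 0.0015), and dropped under the fold limit without EV replicate 3 or HMGB2OE replicate 3 (−0.57 in both) and with the median of its 10 Mb window removed (−0.54). The 46 neighbouring peaks within 1 Mb had a median log2 fold change of −0.13, close to that of MMP16 itself (−0.13), and whether the region as a whole moved was not tested. The MMP16 sum was at −0.14 with an adjusted p of 0.0531.

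MMP10, a stromelysin, fell at a peak 20.1 kb downstream of its start, from 360.0, 331 and 290.2 to 253, 206 and 188 counts (log2 fold change −0.59, adjusted p = 0.0038), which lay close to the fold limit and passed under it without EV replicates 1 or 2 or HMGB2OE replicates 2 or 3 (−0.51 to −0.58). Its sum fell by 0.25 on the log2 scale (SE 0.0634, adjusted p = 0.0210), a call lost without EV replicates 1 or 2 or HMGB2OE replicate 2 (−0.19 to −0.23). The sums below 0 of next smallest p, of MMP16, ADAM10, ADAMTS10 (−0.17, adjusted p = 0.0704) and MMP20 (−0.11), did not pass the test, nor did the larger differences at ADAM20 (−0.40, adjusted p = 0.145) and ADAM18 (−0.23, adjusted p = 0.733).

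The collagenases went the other way in value without passing the test. MMP1, the interstitial collagenase, had a promoter peak at 422, 475 and 434 counts in EV and 502, 481 and 473 in HMGB2OE libraries, which overlapped (log2 fold change 0.13, adjusted p = 0.496). MMP13 gave 0.30 (adjusted p = 0.473) at its promoter. Of the 15 collagenase peaks, 80.0% lay above 0, beside 52.6% of protease peaks and 49.2% of all tested peaks. These peaks belong to 3 genes of chromosome 11 and are not replicates. The collagenases held 0 higher and 0 lower peaks, with 1 higher and 0 lower at an unadjusted p under 0.05 by edgeR and 0 in either direction by DESeq2. The gelatinases MMP2 (promoter −0.018, adjusted p = 0.948) and MMP9 (sum −0.031, adjusted p = 0.807, no promoter peak) and the stromelysin MMP3 (0.12, adjusted p = 0.792) were not called either.

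**Figure D4:**
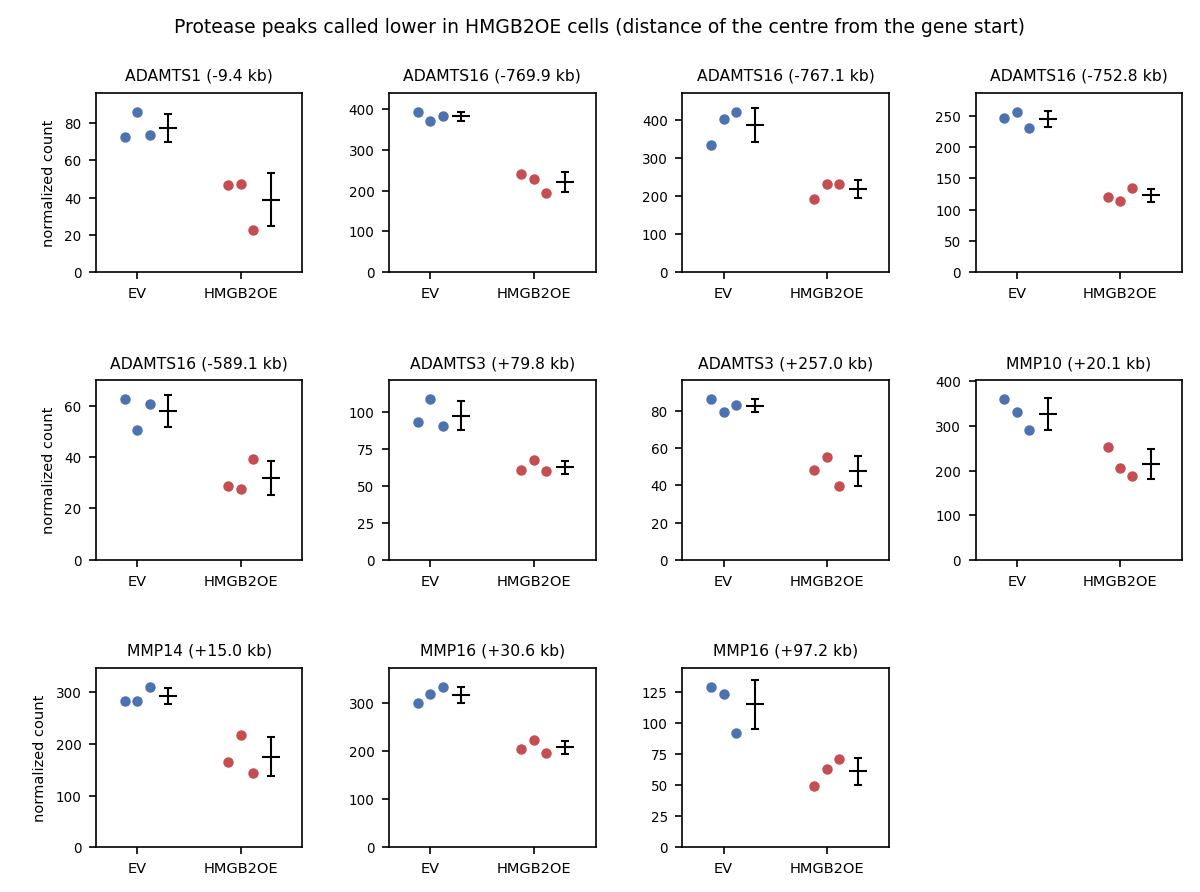
Normalized count (y axis, from 0) of each of the 11 protease peaks called lower, in EV (blue) and HMGB2OE (red) libraries, with black bars for the mean and SD of 3 libraries. The 3 red points lie below the 3 blue points in every panel, and the ADAMTS16 peak 753 kb upstream has the lowest HMGB2OE to EV ratio, at 0.500.

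Promoter accessibility in EV cells was compared over the 46 genes with a tested promoter peak, each taken at its promoter peak of highest mean count, and all of these peaks had the same width of 502 bp. The highest were ADAM17 (2070.3 ± 200.1, SD, n = 3), ADAM22 (1751 ± 106), ADAM10 (1598 ± 59.2), ADAM15 (1559 ± 55.4) and ADAMTS9 (1138 ± 98.4). The lowest were ADAM21 (16.9 ± 8.52), MMP23B (31.0 ± 8.07), MMP13 (52.7 ± 6.49), ADAMTS14 (54.3 ± 19.2) and ADAMTS5 (54.7 ± 3.54). The median over all 16280 genes with a promoter peak was 701. In 37 of the 45 neighbouring pairs of this order the EV libraries overlapped, as they did from each of ADAM17, ADAM22 and ADAM10 to the next gene, while every ADAM15 library lay above those of ADAMTS9. Genes further apart in the order could still be separate, and the lowest ADAM17 library (1840) lay above the highest of ADAM10 (1666). The order leaves out peaks centred in a neighbouring gene. The start-site peak of ADAM21, centred in SYNJ2BP, held 175 ± 19.4 in EV libraries (SD, n = 3), so that ADAM21 is lowest only by the peak assigned to it, which lies 2.60 kb from its start. The start-site peak of ADAM9 in TM2D2 (1604) would stand above ADAM10, and a peak in TUBGCP2 within the promoter window of ADAM8 held 1260 ± 59.5. A further 15 genes, MMP9 among them, had tested peaks but no promoter peak. Of the 46 promoters 25 had a log2 fold change above 0 and 21 below, with a median over all 84 promoter peaks of 0.032, beside −0.051 over all promoter peaks of the genome.

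**Figure D5:**
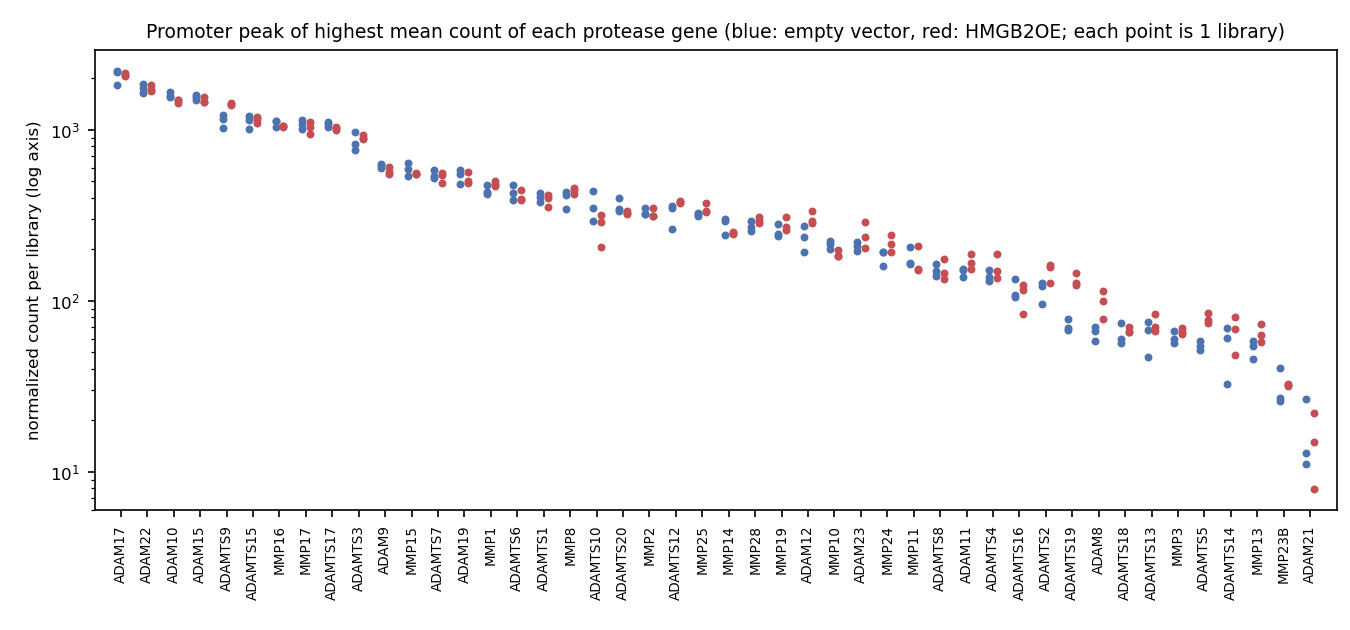
Normalized count per library (y axis, log scale) at the promoter peak of highest mean count of 46 protease genes, ordered by the EV mean along the x axis, with EV in blue and HMGB2OE in red. The points fall from 2070.3 at ADAM17 to 16.9 at the peak assigned to ADAM21, and ADAMTS19 is the gene whose red and blue points are called different.

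AP-1, the JUN and FOS dimer that drives several MMP promoters, binds the word TGAGTCA, which reads TGACTCA on the other strand. Peaks were searched for this word on both strands. It was found in 204 of 625 protease peaks (32.6%) and in 28.0% of all tested peaks. It was found in 8 of 20 higher protease peaks (40.0%), beside 35.9% of all higher peaks, and in 4 of 11 lower ones (36.4%), beside 34.2% of all lower peaks. The word was thus present in called peaks of both directions. The promoter peaks of MMP1, MMP3 and MMP13 hold it and were not called. In the RefSeq promoters (250 bases before to 50 after the start), which cover 36 of the 62 genes, 1 of 37 protease promoters holds the word (2.70%), beside 4.95% of 35116 promoters, and the match is in MMP7, beginning 67 bases before the start. Words of CRE (TGACGTCA), TEAD (GGAATG) and E-box (CACGTG) elements were found in 0.320%, 29.3% and 5.60% of protease peaks, beside 0.758%, 29.0% and 6.85% of all tested peaks. None of these 4 words contains another. These matches are descriptions of letters and not of binding.

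AP-1 words of peaks that rose at ADAMTS2, ADAMTS9 and ADAM12, of peaks that fell at ADAMTS16 and MMP14, and of the MMP7 promoter are shown with 12 bases on each side, since they allow the same word to be seen in peaks of opposite direction. Capitals mark the word, all are on the plus strand of hg38 except MMP7, which is given from RefSeq along its own minus strand.
ADAMTS2, chr5:179150475-179150505, log2 fold change 1.06: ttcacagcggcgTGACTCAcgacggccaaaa
ADAMTS2, chr5:179150645-179150675, in the same peak: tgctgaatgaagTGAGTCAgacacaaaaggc
ADAMTS2, chr5:179209702-179209732, log2 fold change 0.75: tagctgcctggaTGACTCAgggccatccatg
ADAMTS2, chr5:179276077-179276107, log2 fold change 0.78: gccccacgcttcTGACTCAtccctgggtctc
ADAMTS9, chr3:65031048-65031078, log2 fold change 0.83: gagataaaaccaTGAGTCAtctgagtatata
ADAM12, chr10:126422015-126422045, log2 fold change 0.66: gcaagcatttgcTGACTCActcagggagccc
ADAMTS16, chr5:4373218-4373248, log2 fold change −0.83: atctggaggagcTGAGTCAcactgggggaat
MMP14, chr14:22851483-22851513, log2 fold change −0.72: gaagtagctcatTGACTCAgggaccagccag
MMP7 promoter: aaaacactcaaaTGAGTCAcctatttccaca

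Genes that restrain, activate or are cut by these proteases were read from lists chosen by function, with the same calls and the same shares of all peaks (1.87% higher, 1.44% lower). These lists held 33 called peaks, of which 10 kept their call through the omission of any 1 library: the A2M promoter, 1 rise at THSD4, 1 fall at ADAMTSL1, both falls at SERPINB2 and at MET, the fall near AREG and 2 falls at NRG1. Of the 11 list genes called on sums, 0 kept the call through all 6 omissions, though each kept its direction. Of the protease inhibitors, 5 of 137 tested peaks were higher and 0 lower, with 6 lower at an unadjusted p under 0.05 by edgeR and 0 called lower by DESeq2. These were the promoter of A2M, a trap for proteases, at 72.4 ± 21.9 in EV and 144 ± 11.9 (SD, n = 3) in HMGB2OE libraries (log2 fold change 0.95, adjusted p = 0.0015), an intron of TIMP3, the matrix-bound MMP and ADAM inhibitor (0.85, adjusted p = 0.0229), 2 introns of SPOCK1 (0.78 and 0.76) and a peak 380.3 kb from SPOCK3 (1.34, adjusted p = 0.0127). Without EV replicate 2 the TIMP3, SPOCK1 and SPOCK3 calls were lost, and the lowest log2 fold change over the 6 omissions was 0.68 at TIMP3, 0.57 at SPOCK1 and 0.95 at SPOCK3. On sums, SPOCK2 (0.21) and SPOCK3 (0.26) were higher. Of the activators and partners, 5 of 216 peaks were higher and 0 lower, with 15 lower at an unadjusted p under 0.05 by edgeR and 0 called lower by DESeq2. All 5 were nearest to FRMD8, a partner of the ADAM17 regulators iRhom, at log2 fold changes of 0.60 to 0.69, but 4 of them lie within the long non-coding RNA gene NEAT1, and HMGB2OE replicate 3 was the highest library at each. Without it all 5 calls were lost (the lowest log2 fold change was 0.24), and DESeq2 called 1 of the 5. On sums PCSK5 and PCSK7, convertases that cut pro-domains, and the tetraspanins TSPAN14 and TSPAN33, partners of ADAM10, were higher, by 0.18, 0.17, 0.12 and 0.16.

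The plasminogen system, which activates several MMPs, held 0 higher and 2 lower peaks among 121, with 7 higher at an unadjusted p under 0.05 by edgeR and 0 called higher by DESeq2. Both lower peaks were at SERPINB2, the plasminogen activator inhibitor PAI-2. The one 39.0 kb upstream fell from 196, 227 and 179 to 83.3, 98.4 and 56.3 counts, with no overlap (log2 fold change −1.32, SE 0.168, adjusted p = 1.7e-05), and the intronic one had a log2 fold change of −0.97 (adjusted p = 0.00071). On sums SERPINB2 (−0.23, adjusted p = 0.0055) and PLG (−0.27, adjusted p = 0.0324) were lower, the former not without EV replicate 2 (−0.20 to −0.25 over the 6 omissions) and the latter only with all libraries or without HMGB2OE replicate 3 (−0.20 to −0.32).

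Genes of proteins shed by ADAM10 and ADAM17 held 4 higher and 10 lower peaks among 359, which is 1.11% and 2.79%. A peak 101 kb from AREG, the ligand amphiregulin, fell from 70.9, 81.7 and 51.5 to 28.1, 25.9 and 28.1 counts (log2 fold change −1.32, adjusted p = 0.0022). MET, the hepatocyte growth factor receptor, had 2 intronic peaks lower (−0.75, adjusted p = 6.0e-05, and −0.72, adjusted p = 0.0036), and NRG1, the ligand neuregulin, had 4 lower (−0.67 to −0.93) and 1 higher (0.998). CDH2, the N-cadherin gene, was only the nearest gene to 1 higher (0.93) and 2 lower (−0.67 and −0.63) intergenic peaks. They lay 558, 977 and 1324 kb from its start. ERBB4 had 1 higher peak (1.06), 185 kb from its start and intergenic, and 1 lower in an intron (−0.72). NOTCH2 had 1 higher (0.59). On sums AREG (−0.21), EREG (−0.29) and NRG1 (−0.13) were lower. Substrates of ADAMTS proteases held 1 higher peak, at ACAN, the aggrecan gene (0.65, adjusted p = 0.0477), which was lost without any library (0.52 to 0.79) and not called by DESeq2, and 0 lower among 65, with 5 lower at an unadjusted p under 0.05 by edgeR and 0 called lower by DESeq2. The ADAMTS-like relatives held 2 higher and 4 lower peaks among 149, at ADAMTSL1 (0.66, −0.80 and −0.84), THSD4 (0.85 and −0.61) and ADAMTSL3 (−0.59), and no gene of that list passed on sums.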

How the data were processed

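ATAC-seq counts from 3 EV and 3 HMGB2OE libraries of A375 were used. Per the labels and the study's methods, the authors trimmed reads with Trim Galore 0.6.7 and cutadapt 4.0, checked them with FastQC 0.12.1, used Bowtie 2 for alignment to hg38, Picard for duplicates and MACS2 for peaks, with public melanocyte data as the control, then merged the peaks and deposited whole-number counts per peak from featureCounts without normalization. A Tn5 shift, and whether peaks were called per library or on pooled libraries, are not given in the sources used here. A peak set made against melanocyte data can lack weak peaks and peaks that are also open in melanocytes.

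Columns were mapped to samples by name and 0 columns of other samples were present. Peaks were assigned with GENCODE release 44 on hg38. edgeR 4.0.16 in R 4.3.3 was used with TMM, filterByExpr and the quasi-likelihood F test with no covariate on all peaks, and again on counts summed per gene. P-values were adjusted by Benjamini-Hochberg over all tested features, and a fold limit of 1.5 was applied to peaks only. SEs are the size of the log2 fold change over √F. Normalized counts are counts over effective library size, scaled to its mean. DESeq2 1.42.0 was an alternative. The scripts were tested on simulated data. Named genes were those with a called peak, the 5 highest and 5 lowest promoters, a fixed set of members by role, the 5 rises and 5 falls of smallest p on sums, and list genes with a called peak. ADAMTS8, MMP13, ADAM18, ADAM20 and the list genes SPOCK2, PCSK5, PCSK7, TSPAN14, TSPAN33, PLG and EREG were named after their values were seen. The members, lists and tests were chosen with earlier results of these data known. The alternatives were other normalizations, filters, GC content offsets, a regional median over 10 Mb, a replicate block, other assignments and windows, and each library left out.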

Additional observations from a re-analysis of the deposited data

How the results depend on the processing

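Of the 31 called peaks, 14 (9 higher and 5 lower) kept their call in every alternative that refitted the peaks, and 24 did so in the 10 fits that kept all libraries, counting 1 ADAMTS18 peak that was tested in 9 of them, since the filter of at least 10 counts in every library removed it. The libraries limit the calls: leaving out 1 library at a time gave 13 to 20 protease peaks higher and 6 to 12 lower, 1 to 2 promoter peaks higher, 5 to 9 genes higher and 0 to 2 lower on sums, and a median log2 fold change of 0.0134 to 0.0350. The fewest higher peaks, 13, came without EV replicate 2 or HMGB2OE replicate 3.

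Without the fold limit 33 protease peaks were higher and 22 lower, where 3.44% and 3.03% of all tested peaks in the genome were. With a promoter window of 1 kb 1 promoter peak was higher. With intergenic peaks over 100 kb from the gene start left out, an alternative chosen after seeing the data, 7 peaks were lower and the median was 0.0108. The median was 0.0470 by library size only, 0.0114 with GC content offsets and 0.00699 with every peak at its nearest start site. Genes lower on sums numbered 3 by library size only, 3 with a loess trend, 2 by DESeq2 and 2 by nearest start site. The share of higher among all called peaks was 56.4%, and 62.6% by library size only and 50.1% with the loess trend.

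The labels number the libraries 1 to 3 in both conditions. Deviations of same-numbered libraries correlated at −0.0886, 0.185 and 0.125, so the numbers were not taken as pairs. With the replicate block 8 genes were higher and 4 lower on sums (6 and 1 without it), and with the block and GC content offsets the median was 0.0159. The ADAM8 promoter was called with the block (0.59, adjusted p = 0.0486 by edgeR) and with the block and GC content offsets (0.60, adjusted p = 0.0399), which made 3 promoter peaks higher instead of 2.

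Reversed directions were limited to values that were not called: the ADAM22 promoter (0.010 library size only, 0.051 loess, 0.019 GC, 0.021 block with GC, 0.045 with the 10 Mb median removed, and −0.054 to 0.028 with a library left out), the MMP2 promoter (0.0034 library size only, −0.078 to 0.018 with a library left out), the ADAMTS1 promoter (0.044 with the 10 Mb median removed, −0.093 to 0.021 with a library left out), and, with a library left out, the promoters of ADAM21 (−0.57 to 0.35), MMP23B (−0.049 to 0.29), ADAM17 (−0.059 to 0.063) and ADAM19 (−0.12 to 0.0022). The ADAMTS10 sum was 0.21 by nearest start site. The cause of these changes was not tested.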
